A study of Mus musculus with 2 samples.

Results

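The data describe 40 genes of the cell division cycle across the cell types of mouse heart tissue under pressure overload. They were taken by name from a list and split into 17 genes of S phase, when DNA is copied (Mcm2, Mcm3, Mcm4, Mcm5, Mcm6, Mcm7, Pcna, Rrm1, Rrm2, Tyms, Gins2, Cdc6, Cdt1, Uhrf1, Pclaf, Clspn and Slbp), and 23 genes of G2 and mitosis, called G2/M here (Top2a, Mki67, Birc5, Ube2c, Cdk1, Ccna2, Ccnb1, Ccnb2, Cdc20, Aurka, Aurkb, Bub1, Bub1b, Cenpe, Cenpf, Kif11, Kif23, Tpx2, Nusap1, Hmmr, Plk1, Cks2 and Prc1). All 40 were found once among the 56954 features of the count matrix. The library holds heart cells other than cardiomyocytes, pooled from 3 control and 4 Nts knockout mice aged 6 to 8 weeks, on day 7 of TAC, in which the transverse aorta is narrowed by surgery so that the left ventricle pumps against high pressure. The labels do not give the knockout allele or a driver, and their genotype entry reads WT for the whole pool. No cell is tied to a mouse, so control and knockout hearts were not compared. Unoperated hearts and the hashtag library were not analysed here.

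In background, a dividing cell first loads the MCM helicase onto DNA with the help of Cdc6 and Cdt1, then copies its genome around the sliding clamp Pcna while Rrm1, Rrm2 and Tyms supply nucleotides. Transcription of these genes is switched on by E2F factors as cells enter the cycle. The mitotic genes follow later, Cdk1 and its cyclins among them. Many carry a cell cycle homology region (CHR) near their start where a repressor complex sits in resting cells. In the adult heart most resident cells are at rest, and pressure overload is known to bring fibroblasts, macrophages and endothelial cells into the cycle.

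RefSeq promoter windows (GRCm38.p6, 250 bases before and 50 after the start of transcription) were matched to 35 of the 40 genes by symbol, giving 38 windows. Mcm4, Gins2, Ccna2, Aurkb and Tpx2 had no entry. Shown here are the 250 bases before the start, 5′ to 3′ on each gene's own strand, for the 2 genes of each list with most UMIs (Slbp, Pcna, Cks2, Ccnb2) and for Mcm6 and Cdk1, chosen after the matches were seen because they show an E2F and a CHR match clearly. Capitals mark 3 kinds of match, all searched on both strands with overlaps allowed. They are CCAAT, which reads ATTGG on the other strand, the CHR letters TTTGAA, and the letters of E2F sites, which are TTTCCCGC, the partly overlapping form GGCGGGAA and the variant TTTGGCGC.
Slbp: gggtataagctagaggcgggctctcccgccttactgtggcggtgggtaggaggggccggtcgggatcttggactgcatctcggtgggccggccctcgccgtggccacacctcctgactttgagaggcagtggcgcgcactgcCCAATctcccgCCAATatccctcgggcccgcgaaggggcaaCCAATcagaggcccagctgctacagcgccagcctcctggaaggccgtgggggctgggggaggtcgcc
Pcna: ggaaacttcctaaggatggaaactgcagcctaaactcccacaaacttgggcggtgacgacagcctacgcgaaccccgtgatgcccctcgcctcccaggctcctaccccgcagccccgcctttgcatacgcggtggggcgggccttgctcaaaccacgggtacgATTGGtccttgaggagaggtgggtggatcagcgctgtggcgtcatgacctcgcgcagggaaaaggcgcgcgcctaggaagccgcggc
Mcm6: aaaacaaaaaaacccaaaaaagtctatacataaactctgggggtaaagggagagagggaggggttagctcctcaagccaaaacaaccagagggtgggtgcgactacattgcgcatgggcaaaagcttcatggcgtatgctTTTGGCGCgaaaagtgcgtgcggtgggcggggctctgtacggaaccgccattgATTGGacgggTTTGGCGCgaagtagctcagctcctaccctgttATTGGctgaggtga
Cks2: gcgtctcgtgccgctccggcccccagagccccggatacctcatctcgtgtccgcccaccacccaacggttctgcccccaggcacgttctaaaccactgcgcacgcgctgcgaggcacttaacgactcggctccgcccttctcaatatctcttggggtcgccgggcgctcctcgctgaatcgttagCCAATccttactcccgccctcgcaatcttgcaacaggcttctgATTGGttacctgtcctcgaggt
Ccnb2: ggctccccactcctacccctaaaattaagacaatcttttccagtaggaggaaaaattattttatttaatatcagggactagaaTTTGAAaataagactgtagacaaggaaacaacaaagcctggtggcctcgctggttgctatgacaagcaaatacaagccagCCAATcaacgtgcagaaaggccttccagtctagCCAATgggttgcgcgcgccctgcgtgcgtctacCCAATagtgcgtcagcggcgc
Cdk1: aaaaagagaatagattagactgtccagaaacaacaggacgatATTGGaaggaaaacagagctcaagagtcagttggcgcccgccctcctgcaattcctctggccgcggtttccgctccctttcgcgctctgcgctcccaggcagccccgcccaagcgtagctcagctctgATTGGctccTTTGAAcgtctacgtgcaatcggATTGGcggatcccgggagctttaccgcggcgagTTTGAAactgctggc
Slbp spans chr5:33652575-33652824, Pcna chr2:132253181-132253430, Mcm6 chr1:128359706-128359955, Ccnb2 chr9:70421555-70421804 and Cdk1 chr10:69352913-69353162, each on the minus strand, and Cks2 chr13:51644982-51645231 on the plus strand. Mcm6 has TTTGGCGC with its first base 110 and again 47 bases before the start, and Cdk1 has TTTGAA 71 and 15 bases before it. Ccnb2 has 3 CCAAT matches, at 87, 54 and 21 bases before the start, and a TTTGAA at 167 bases. It has a further TTTGAA at position 5 past the start, outside the bases shown. An E2F match was found in 9 of 17 S windows (52.9%) and in 0 of 21 G2/M windows, against 3.21% of all 32851 windows of this length. TTTGAA was found in 15 of 21 G2/M windows (71.4%) and in 1 of 17 S windows (5.88%), against 17.9% of all windows. CCAAT was common to both lists, in 14 of 17 S windows (82.4%) and 19 of 21 G2/M windows (90.5%), against 37.4% of all. These matches describe letters in the windows and show no binding.

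The matrix held 69993559 UMIs (unique molecular identifiers, the tags by which captured transcripts were counted) in 9369 barcodes, with 2567 to 42567 per barcode and a median of 6663. After 358 called doublets (3.82%) were removed, 9011 cells remained, and 8252 of them (91.6%) passed the marker gate of exactly 1 lineage without use of any cell cycle gene. The 40 genes made up 0.0646% of the UMIs of these 9011 cells, 22374 UMIs for the S list and 19799 for the G2/M list. Names end in "-like" because they rest on markers alone. In each of the 12 lineages described, its own markers outnumbered those of any other list among its top 10 genes by fold. Of the cells gated, 96.4% lay in a cluster of the same lineage. The gate used these same markers, and each cluster was named after the lineage of most of its gated cells. Both results were thus partly built in and are no independent check of the names. Cardiomyocyte markers passed the gate in 3 cells. The cells that passed neutrophil markers (42) lay in macrophage clusters in 39 cases and are not named, and 76 of the 296 blood endothelial-like cells lay in the endocardial cluster. The gate's minimum number of markers was set after the data had been seen, and 94 of the fibroblast-like and 50 of the macrophage-like cells were at that minimum.

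Few cells of the main lineages carried several S or G2/M transcripts at once. To compare lineages at equal depth, each cell was thinned at random to 2500 UMIs, which left out no cell, and called positive for a list with at least 3 of its UMIs from at least 2 of its genes. Of 4845 fibroblast-like cells, 133 were S-positive (2.75%, 95% Clopper-Pearson interval 2.30 to 3.24%) and 128 were G2/M-positive (2.64%, 2.21 to 3.13%). Of 1925 macrophage-like cells, 152 were S-positive (7.90%, 6.73 to 9.19%) and 75 were G2/M-positive (3.90%, 3.08 to 4.86%). The S share was thus higher in macrophage-like cells by more than counting error. The intervals of the G2/M share overlapped only at their ends, between 3.08 and 3.13%, which does not show that these shares were equal. Blood endothelial-like cells had 36 S-positive (12.2%, 8.67 to 16.4%) and 22 G2/M-positive (7.43%, 4.72 to 11.04%) of 296 cells, with intervals above the fibroblast-like ones and overlapping the macrophage-like ones. All intervals cover counting error only, since 1 pooled library has no replicate and its cells share mice in unknown numbers.

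**Figure D1:**
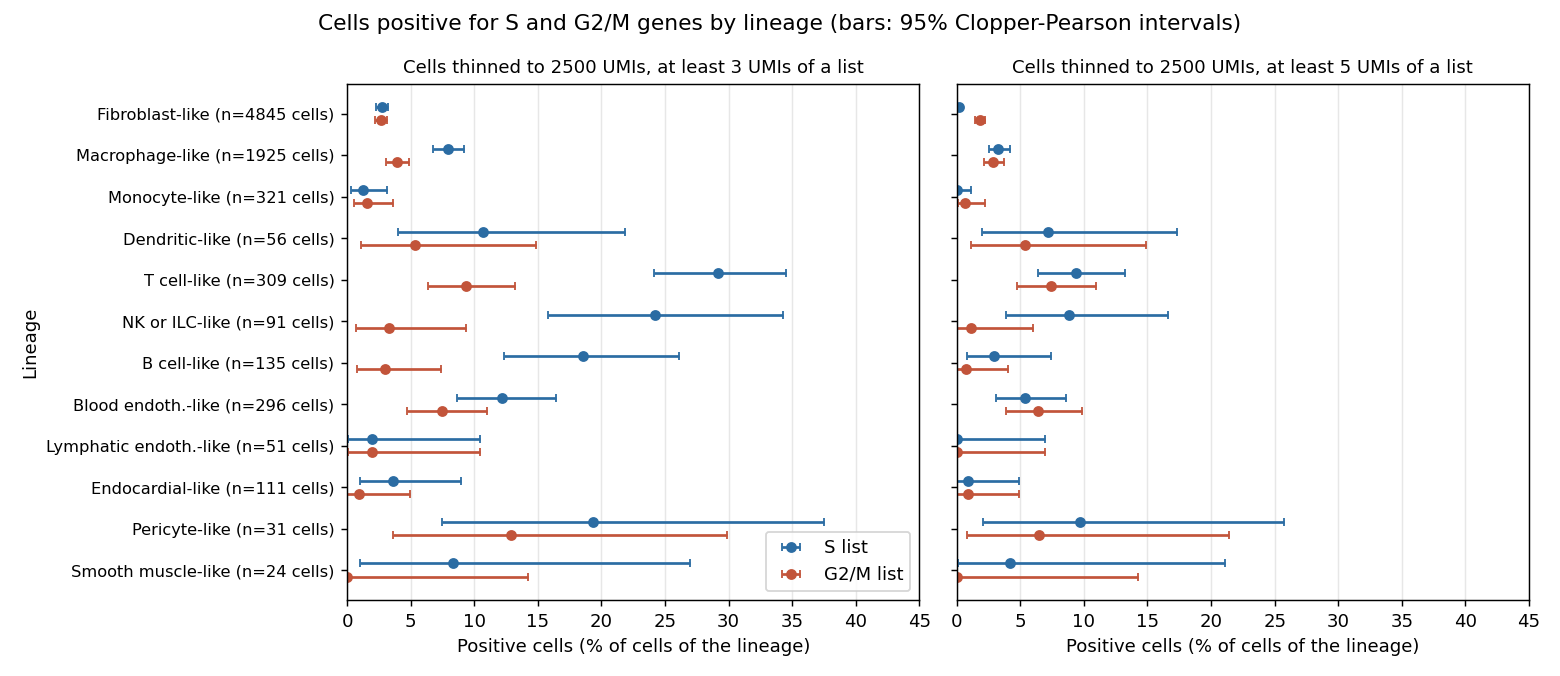
Share of cells positive for the S list (blue) and the G2/M list (red) in each lineage at 2500 UMIs per cell, with at least 3 UMIs on the left and at least 5 on the right. Points are shares in percent and bars are 95% Clopper-Pearson intervals. T cell-like cells reach 29.1% for S on the left, and the fibroblast-like S share drops to 0.186% on the right while its G2/M share stays at 1.82%.

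T cell-like and NK or innate lymphoid-like cells had the largest S shares at this threshold, and B cell-like cells were near pericyte-like ones (6 of 31, 19.4%). Of 309 T cell-like cells, 90 were S-positive (29.1%, 24.1 to 34.5%) and 29 were G2/M-positive (9.39%, 6.38 to 13.2%). NK or innate lymphoid-like cells had 22 S-positive of 91 (24.2%, 15.8 to 34.3%) and 3 G2/M-positive cells (3.30%, 0.685 to 9.33%). B cell-like cells had 25 S-positive of 135 (18.5%, 12.4 to 26.1%) and 4 G2/M-positive cells (2.96%, 0.813 to 7.41%). In these last 2 lineages the S share was above that of fibroblast-like cells, and the interval of the G2/M share covered theirs. Without Slbp and Pcna, 4 B cell-like cells (2.96%, 0.813 to 7.41%) and 9 NK or innate lymphoid-like cells (9.89%, 4.62 to 17.9%) stayed S-positive. The fibroblast-like share was then 0.722% (0.504 to 1.00%), which the B cell-like interval overlapped and the NK or innate lymphoid-like interval did not. Among the small lineages, 4 of 31 pericyte-like cells were G2/M-positive, endocardial-like cells had 4 S-positive and 1 G2/M-positive of 111, and lymphatic endothelial-like cells had 1 and 1 of 51.

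Monocyte-like cells were taken as a reference on the assumption that monocytes recruited from blood divide little, which was not tested here. They had the lowest S share of the lineages with over 100 cells. Of 321 such cells, 4 were S-positive (1.25%, 0.341 to 3.16%) and 5 were G2/M-positive (1.56%, 0.508 to 3.60%). The fibroblast-like shares for both lists lay within these intervals. For G2/M this holds only with Cks2 and Ccnb2 in the list, as Cks2 held 316 of the 402 G2/M UMIs of monocyte-like cells. Without these 2 genes, 0 monocyte-like cells were G2/M-positive (upper limit 1.14%), against 2.11% of fibroblast-like cells (1.72 to 2.55%). By other G2/M genes described below, 1 of the 5 monocyte-like cells was positive, against 96 of the 128 fibroblast-like ones. Median depths before thinning were 7592 UMIs in fibroblast-like, 5636 in macrophage-like, 5168 in monocyte-like, 4808 in blood endothelial-like and 3245 in T cell-like cells. Without thinning the S share was 25.8% in fibroblast-like, 28.5% in macrophage-like and 13.1% in monocyte-like cells, and the G2/M share 4.87%, 9.92% and 4.67%. The unthinned S shares of the 2 main lineages were close to each other, and those at equal depth were not.

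Most S-positive fibroblast-like cells were near the threshold, and most G2/M-positive ones were not. With at least 5 UMIs, 9 fibroblast-like cells were S-positive (0.186%, 0.0850 to 0.352%) and 88 were G2/M-positive (1.82%, 1.46 to 2.23%). Macrophage-like cells kept 63 S-positive (3.27%, 2.52 to 4.17%) and 55 G2/M-positive cells (2.86%, 2.16 to 3.70%). T cell-like cells kept 29 and 23, blood endothelial-like cells 16 and 19, NK or innate lymphoid-like cells 8 and 1, and B cell-like cells 4 and 1. Monocyte-like cells had 0 S-positive cells of 321, for which a limit of 3 cells allows a share of up to 0.935% and the Clopper-Pearson interval reaches 1.14%, and 2 G2/M-positive cells. With Slbp and Pcna left out of the S list and Cks2 and Ccnb2 out of the G2/M list, at 3 UMIs, the counts were 35 and 102 for fibroblast-like, 92 and 62 for macrophage-like, 33 and 24 for T cell-like, 20 and 19 for blood endothelial-like and 0 and 0 for monocyte-like cells. The Clopper-Pearson upper limit of 0 of 321 is 1.14%, and the fibroblast-like G2/M share of 2.11% (1.72 to 2.55%) lay above that limit while the S share of 0.722% (0.504 to 1.00%) did not. Across the 10 alternatives tried, the macrophage-like share exceeded the fibroblast-like share in 10 for S, by 2.63 to 13.5 percentage points, and in 10 for G2/M, by 1.04 to 5.05 points.

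S and G2/M transcripts were balanced differently in different lineages. Of the phase-positive fibroblast-like cells, 113 were positive for S only, 108 for G2/M only and 20 for both, so that S-only cells made up 46.9% (40.5 to 53.4%). Macrophage-like cells had 124, 47 and 28 (62.3% S only, 55.2 to 69.1%). Blood endothelial-like cells had 25, 11 and 11, and T cell-like cells 67, 6 and 23. This order between fibroblast-like and macrophage-like cells reversed in 2 of the 10 alternatives, without thinning (82.4% against 70.0%) and with at least 2 UMIs (73.9% against 69.1%). With at least 5 UMIs the S-only share was 7.37% in fibroblast-like cells (7 of 95 phase-positive cells) and 44.4% in macrophage-like cells. Of the G2/M-positive cells, 15.6% were also S-positive in fibroblast-like (9.81 to 23.1%), 37.3% in macrophage-like (26.4 to 49.3%), 11 of 22 in blood endothelial-like (28.2 to 71.8%) and 79.3% in T cell-like cells (60.3 to 92.0%).

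The cells with the strongest signal separated the lineages further. At equal depth, 62 fibroblast-like cells had 10 or more G2/M UMIs, up to 56, and these 62 held 61.3% of the G2/M UMIs of the 4845 cells. Their median S-list count was 1 UMI, 16 of them had none and 1 had 5 or more. A single fibroblast-like cell had 10 or more S UMIs, and 4324 of the lineage (89.2%) had no G2/M UMI at all. Macrophage-like cells with 10 or more numbered 22 for S and 38 for G2/M, the latter holding 52.0% of the lineage's G2/M UMIs, and 13 of the 38 had 5 or more S UMIs. T cell-like cells had 18 and 13 such cells, and 12 of the 13 also had 5 or more S UMIs, with a median of 17. Blood endothelial-like cells had 6 and 14, and the 14 held 79.7% of that lineage's G2/M UMIs, with a median of 5 S UMIs. In pericyte-like cells 1 cell held 59 of the 80 G2/M UMIs at equal depth, so the levels of that lineage describe that cell above all.

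**Figure D2:**
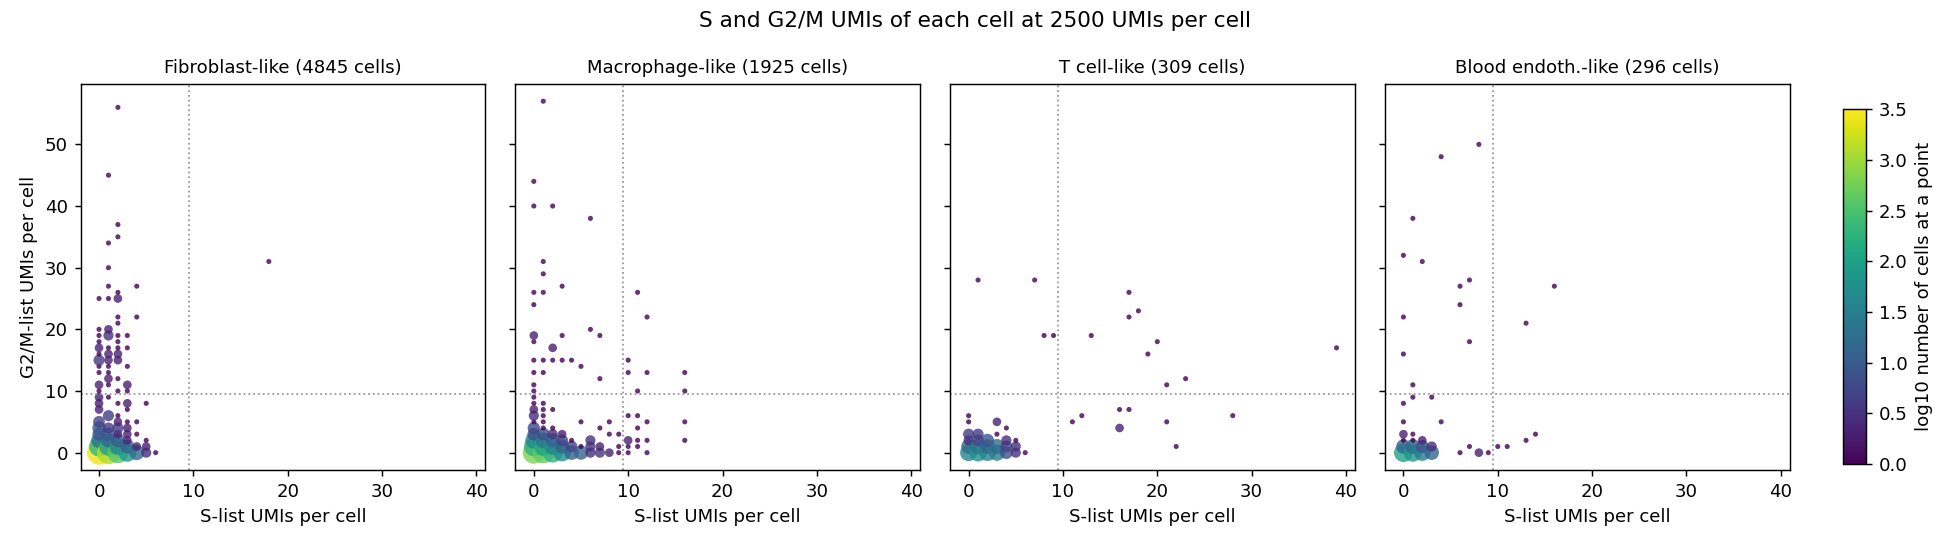
S-list UMIs (x axis) against G2/M-list UMIs (y axis) of each cell at 2500 UMIs per cell in 4 lineages, with color and size for the number of cells at a point and dotted lines just below 10 UMIs. Fibroblast-like cells rise along the G2/M axis with 1 cell past the S line, whereas 13 T cell-like cells lie above the G2/M line, mostly at high S counts.

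A second set of cycle genes, none of them among the 40, was read in the same cells. It held 25 other S genes (such as Mcm10, Cdc45, Dut, Gmnn and Lig1) and 25 other G2/M genes (such as Smc4, Cenpa and Cdca8). In the 108 fibroblast-like cells positive for G2/M only, the other G2/M genes summed to 3479 CPM (counts per 1000000 UMIs of the same cells, 95% exact Poisson interval 3373 to 3588) against 84.1 CPM (81.2 to 87.1) in the 4604 cells positive for neither list. The other S genes summed to 273 CPM (244 to 305) against 124 CPM (120.0 to 127). In the 113 fibroblast-like cells positive for S only, the other S genes reached 195 CPM (168 to 225). The 124 S-only macrophage-like cells had 916 CPM (854 to 981), against 172 CPM (165 to 180) in macrophage-like cells positive for neither. In the 23 T cell-like cells positive for both lists, the other S genes summed to 4074 CPM and the other G2/M genes to 3147 CPM. The G2/M-only fibroblast-like cells also had more UMIs (median 10495 against 7526) and detected genes (median 3588.5 against 2821), and a lower mitochondrial share (0.441% against 0.708%). The part of depth and RNA content in these levels was not tested.

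Calling phases from the other 50 genes alone, by the same rule, gave 40 S-positive (0.826%) and 112 G2/M-positive (2.31%) fibroblast-like cells and 80 (4.16%) and 72 (3.74%) macrophage-like cells. T cell-like cells gave 46 (14.9%) and 53 (17.2%), and blood endothelial-like cells 19 (6.42%) and 22 (7.43%). Of the 128 fibroblast-like cells that were G2/M-positive by the 23 genes, 96 were also positive by the other G2/M genes. Of the 133 that were S-positive by the 17 genes, 7 were positive by the other S genes. For macrophage-like cells these counts were 58 of 75 for G2/M and 54 of 152 for S, and 42 of the 63 cells with at least 5 S UMIs were positive by the other S genes. The 2 sets of S genes thus overlapped in few fibroblast-like cells, and a call from these lists alone was not read as a cell in cycle.

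Summed over all cells of a lineage, the S list stood at 232 CPM in fibroblast-like cells (228 to 237), 462 CPM for macrophage-like cells (450.2 to 475), 563 CPM in blood endothelial-like cells (527 to 601) and 1576 CPM in T cell-like cells (1506 to 1648). The G2/M list stood at 210.3 CPM (206 to 215), 405 CPM (394 to 417), 789 CPM (747 to 834) and 986 CPM (931 to 1044) in the same order. Its ratio to the S list was 0.905 in fibroblast-like (0.878 to 0.932) and 0.876 in macrophage-like cells (0.843 to 0.911). It was 1.40 in blood endothelial-like (1.29 to 1.53), 0.626 in T cell-like (0.582 to 0.673), 0.187 in NK or innate lymphoid-like and 0.20 in B cell-like cells. Without the 2 leading genes of each list it was 1.18 in fibroblast-like and 1.09 in macrophage-like cells. A sum over cells does not separate more positive cells from more UMIs per cell.

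Among the S genes, the most abundant were not the helicase genes but Slbp (ENSMUSG00000004642), which binds the stem-loop of histone mRNA, with 5514 UMIs, and Pcna (ENSMUSG00000027342), the sliding clamp, with 3908. The next were Tyms (1691), which makes thymidylate, Mcm6 (1537) and Rrm1 (1380), the large subunit of ribonucleotide reductase. Slbp led the S list in 6 of the 7 lineages with over 100 cells. It stood at 64.5 CPM in fibroblast-like (62.0 to 67.1), 98.8 CPM in macrophage-like, 105 CPM in monocyte-like, 308 CPM in T cell-like (278 to 341) and 235 CPM in B cell-like cells. In NK or innate lymphoid-like cells it was 299 CPM and had a UMI in 53.8% of cells at equal depth, against 14.5% of fibroblast-like and 23.7% of monocyte-like cells. The intervals of monocyte-like (90.0 to 121) and macrophage-like cells (93.3 to 105) overlapped. In endocardial-like cells Pcna led with 47.5 CPM (32.2 to 67.4), and Slbp was at 41.3 CPM.

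The helicase genes Mcm2 to Mcm7 were highest in T cell-like cells for 5 of the 6, and Mcm6 was highest in NK or innate lymphoid-like cells (128 CPM). In monocyte-like cells all 6 were below the fibroblast-like level, Mcm3 by less than its counting error. Mcm3 was at 7.52 CPM in monocyte-like, 7.97 in fibroblast-like, 40.5 in macrophage-like, 43.0 in blood endothelial-like and 94.0 CPM in T cell-like cells. Mcm5 had 0 UMIs in monocyte-like cells, 2.41 CPM in fibroblast-like, 19.9 CPM in macrophage-like and 65.9 CPM in T cell-like cells. Cdt1, which loads the helicase, was found in 15.6% of B cell-like and 16.48% of NK or innate lymphoid-like cells at equal depth, against 0.433% of fibroblast-like and 2.80% of monocyte-like cells. Of the nucleotide genes, Rrm2 and the clamp partner Pclaf were highest in T cell-like cells, at 162 and 235 CPM, against 7.28 and 6.78 CPM in fibroblast-like cells. Tyms was lower in macrophage-like cells, at 16.2 CPM (14.03 to 18.7), than in fibroblast-like cells, at 26.9 CPM (25.3 to 28.6). It was at 71.3 CPM in blood endothelial-like (58.9 to 85.5) and 61.3 CPM in lymphatic endothelial-like cells, 51 cells with 72 UMIs of the whole S list. Among S-positive cells alone it was at 77.3 CPM in fibroblast-like, 99.6 in macrophage-like, 157 in T cell-like and 230 CPM in blood endothelial-like cells. Gins2, part of the active helicase, was at 21.3 CPM in macrophage-like cells (257 UMIs) and 16.48 CPM in T cell-like cells (20 UMIs). Lowest of the list over all cells were Cdc6 (224 UMIs), which loads the helicase with Cdt1, Uhrf1 (234) and Clspn (314), a mediator of the replication checkpoint, and each was highest in T cell-like cells, at 19.8, 23.9 and 43.7 CPM. The kit counts transcripts from their 3′ ends, so levels were not divided by gene length.

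**Figure D3:**
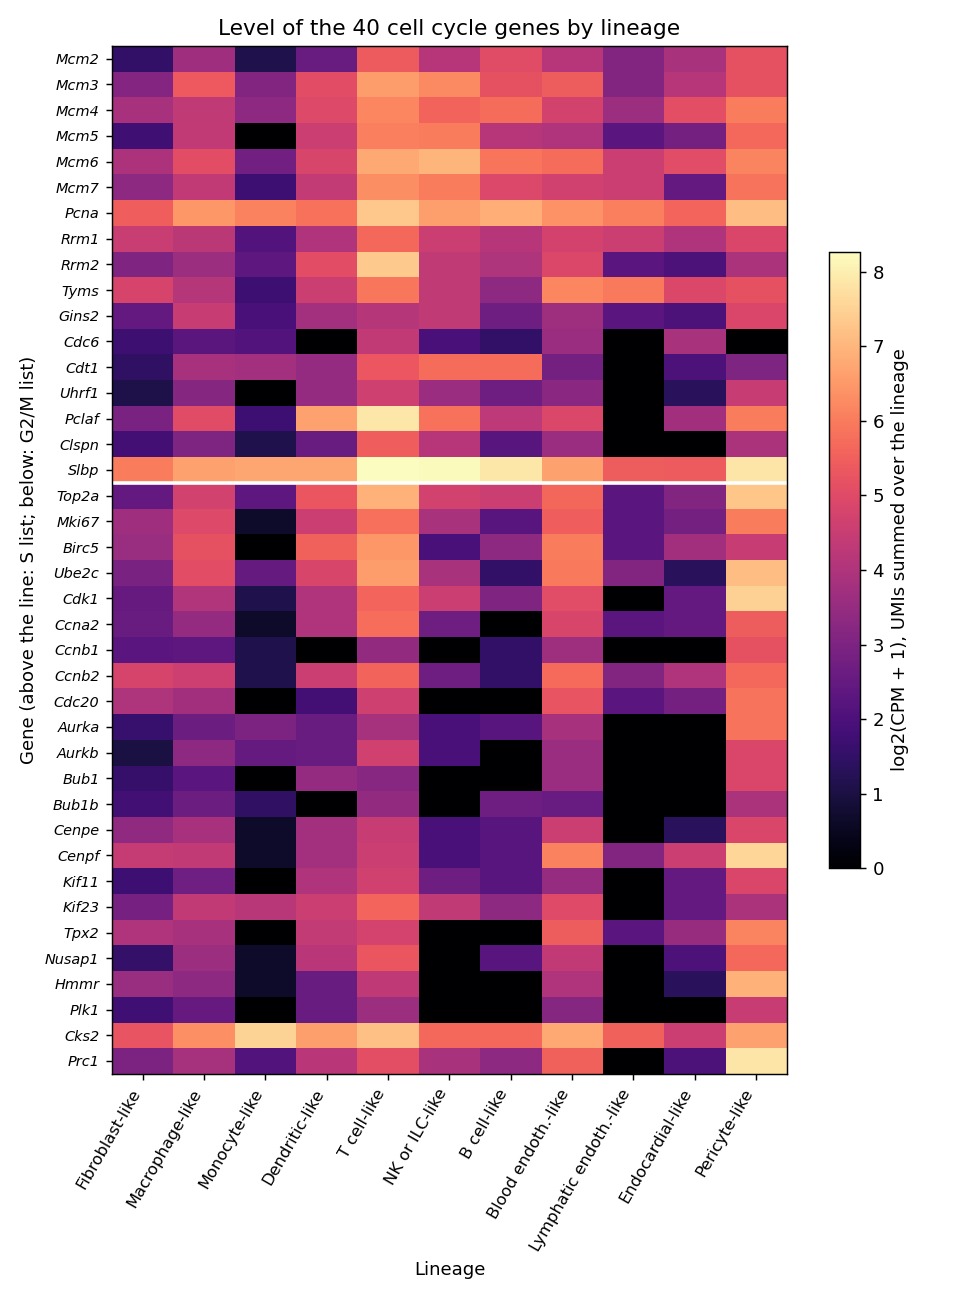
Level of each of the 40 genes (rows, S list above the white line) in 11 lineages (columns), as log2(CPM + 1) of UMIs summed over the cells of a lineage; smooth muscle-like cells (24) are left out. Slbp and Pcna are bright in all 11 columns, Cks2 stands out in the monocyte-like column, and the T cell-like and pericyte-like columns are bright through most of both lists.

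Among the G2/M genes, Cks2 (ENSMUSG00000062248), a small subunit of cyclin-dependent kinases, had most UMIs (3896), followed by Ccnb2 (1701), a mitotic cyclin, Cenpf (1399), a centromere protein, Birc5 (1334), a subunit of the chromosomal passenger complex, and Mki67 (1228), a coat protein of mitotic chromosomes. Cks2 was highest in monocyte-like cells, at 183 CPM (163 to 204), above T cell-like cells at 146 CPM (125 to 169), blood endothelial-like cells at 108 CPM and fibroblast-like cells at 36.8 CPM (34.9 to 38.7). At equal depth it had a UMI in 27.7% of monocyte-like and 4.38% of fibroblast-like cells. The kinase it binds, Cdk1, was at 1.16 CPM in monocyte-like cells, and Birc5, Cdc20, Tpx2 and Plk1 had 0 UMIs there. Cks2 and Ccnb2 together were 79.1% of the monocyte-like G2/M sum, against 30.3% in fibroblast-like and 19.5% in T cell-like cells. After Cks2 (316 UMIs) the next G2/M gene in monocyte-like cells was Kif23 with 30 UMIs, so the G2/M sum of that lineage (233 CPM) was mostly Cks2.

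The kinases, cyclins and checkpoint genes did not all share an order over the 4 lineages with most positive cells. Cdk1 was at 4.80 CPM in fibroblast-like, 15.5 in macrophage-like, 32.0 in blood endothelial-like and 47.8 CPM in T cell-like cells. Top2a, which untangles sister DNA, was at 4.59, 24.9, 48.6 and 121 CPM in that order. Ube2c, which tags mitotic cyclins for destruction, was at 6.73, 33.2, 60.9 and 94.0 CPM. Ccnb2 departed from this order, with 26.9 CPM in fibroblast-like, 23.3 in macrophage-like, 51.0 in blood endothelial-like and 46.2 CPM in T cell-like cells. Cenpf was at 20.9, 19.9, 68.9 and 22.3 CPM, so that of these 4 lineages it was highest in blood endothelial-like cells. The spindle checkpoint kinases Bub1 and Bub1b, the mitotic kinases Plk1, Aurka and Aurkb, the spindle motor Kif11 and the cyclin Ccnb1 were the least abundant of the list, with 185 to 275 UMIs over all analysed cells. Ccna2, the cyclin of S phase and early mitosis, was at 5.08 CPM in fibroblast-like, 10.01 in macrophage-like, 27.7 in blood endothelial-like and 53.6 CPM in T cell-like cells, in the order of Cdk1. Kif23, a motor of the central spindle, was at 6.22, 19.6, 30.7 and 47.8 CPM and at 17.4 CPM in monocyte-like cells. In pericyte-like cells Prc1, a cytokinesis protein, was highest of the list with 32 UMIs (227 CPM), followed by Cenpf with 27 and Cdk1 with 25, in the lineage where 1 cell held most of these UMIs.

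Macrophage-like cells were compared with fibroblast-like cells gene by gene, and a gene was called where its ratio of CPM was at least 2, the 95% exact interval excluded 1 and both sides together had at least 20 UMIs. Of 17 S genes 11 were called higher in macrophage-like cells and 0 in fibroblast-like cells, and of 23 G2/M genes 12 and 0. The intervals treat each UMI as independent. At equal depth, however, 62 fibroblast-like and 38 macrophage-like cells held 61.3% and 52.0% of the G2/M UMIs of their lineage. Such intervals can be too narrow, and calls within a list partly read the same few cells. Over all 17311 genes tested, 16.6% were called higher in macrophage-like and 29.9% in fibroblast-like cells. The median log2 ratio was 1.15 over the S list and 1.09 over the G2/M list, against -0.33 over all genes tested. The S genes with the highest ratio were Mcm5 at 8.24 (6.47 to 10.6), Cdt1 at 7.91 (5.93 to 10.7) and Uhrf1, a reader of newly copied methylated DNA, at 7.19 (4.98 to 10.5). The lowest were Tyms at 0.603 (0.515 to 0.703) and Rrm1 at 0.831 (0.713 to 0.966). Among the G2/M genes Aurkb, the kinase of the passenger complex, led with 9.61 (6.597 to 14.3), followed by Nusap1, a spindle protein, at 5.96 (4.46 to 8.00) and Top2a at 5.42 (4.49 to 6.56). Cdc20, which activates the anaphase-promoting complex, was lowest at 0.819 (0.680 to 0.982), and Hmmr, a spindle protein, was next at 0.840 (0.675 to 1.04). The 6 S genes not called were Mcm4, Rrm1, Rrm2, Tyms, Cdc6 and Slbp. The 11 G2/M genes not called were the cyclins Ccna2, Ccnb1 and Ccnb2, the checkpoint kinase Bub1, the centromere proteins Cenpe and Cenpf, the spindle proteins Tpx2 and Hmmr, the kinase Plk1, Cdc20 and Prc1. Ccna2, Plk1, Bub1 and Prc1 were just under the threshold, at 1.97, 1.99, 1.95 and 1.91.

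Blood endothelial-like cells were set against the same fibroblast-like cells, so the 2 comparisons share them. Of 17 S genes 13 were called higher in blood endothelial-like cells and of 23 G2/M genes 20, with 0 called lower in either list. Over all 16380 genes tested, 13% were called higher in blood endothelial-like and 11.4% in fibroblast-like cells, and the median log2 ratio was 0.04. It was 1.83 over the S list and 2.18 over the G2/M list. Highest were Mcm2 at 9.08 (5.61 to 14.3), Uhrf1 at 7.71 (3.90 to 14.3) and Mcm5 at 6.37 (3.93 to 9.99), and in the G2/M list Aurkb at 11.5 (6.16 to 20.6), Top2a at 10.6 (8.01 to 13.9) and Nusap1 at 10.3 (6.61 to 15.8). Rrm1 at 1.20 (0.855 to 1.63) and Slbp at 1.55 (1.32 to 1.82) were lowest among the S genes, and Hmmr at 1.41 (0.899 to 2.10) and Ccnb2 at 1.90 (1.50 to 2.37) among the G2/M genes. Tyms, at 0.603 in macrophage-like cells, was at 2.65 (2.17 to 3.21) here, and Cdc20 at 2.45 (1.85 to 3.20). Of the genes not called in macrophage-like cells, Prc1 (6.57), Bub1 (5.66), Ccna2 (5.45) and Cdc6 (5.01) were past 5-fold in blood endothelial-like cells. Mcm4, Pcna, Rrm1, Slbp, Ccnb2, Bub1b and Hmmr were not called there.

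**Figure D4:**
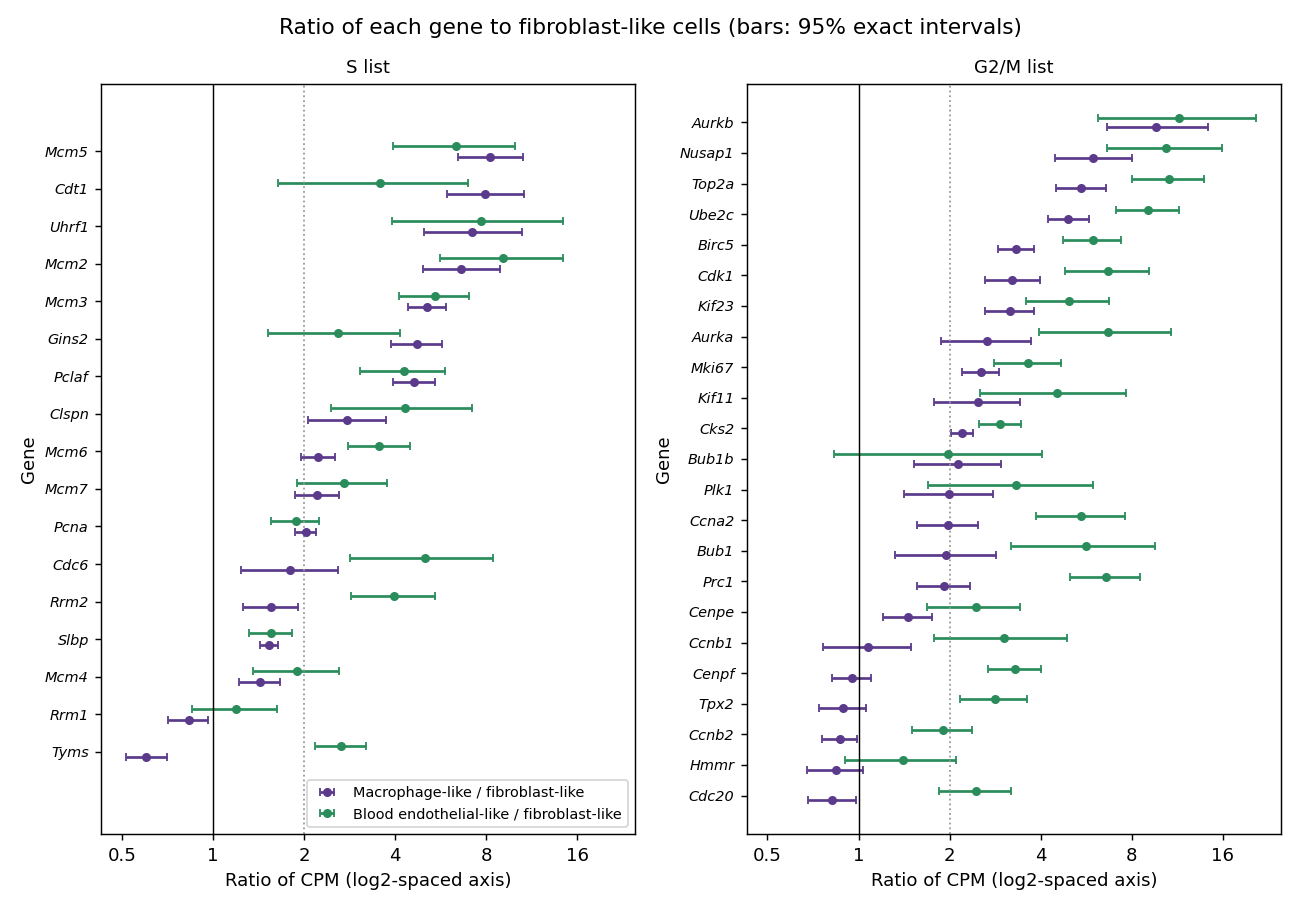
Ratio of CPM of each gene in macrophage-like (purple) and blood endothelial-like cells (green) to fibroblast-like cells, on a log2-spaced axis with 95% exact intervals; the solid line marks equal levels and the dotted line 2-fold. Mcm5 and Aurkb lie highest in purple at 8.24 and 9.61, and Tyms, Rrm1, Cdc20, Hmmr, Ccnb2, Tpx2 and Cenpf lie left of the solid line in purple and right of it in green.

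The make-up of the G2/M signal was also counted inside G2/M-positive cells, which were chosen by these same 23 genes. Their phase mix differed, as 20 of 128 fibroblast-like, 28 of 75 macrophage-like, 11 of 22 blood endothelial-like and 23 of 29 T cell-like ones were also S-positive. Whether lineages differ among cells of the same phase was not tested. The 128 G2/M-positive fibroblast-like cells had 6495 G2/M UMIs before thinning, the 75 macrophage-like cells 3304, the 22 blood endothelial-like cells 1136 and the 29 T cell-like cells 1000. In fibroblast-like cells Cks2 (14.2%), Ccnb2 (12.2%), Cenpf (9.88%), Tpx2 (8.22%), Cdc20 (7.93%) and Hmmr (6.33%) held the largest shares, with 6.75%, 6.57%, 5.75%, 4.66%, 3.84% and 3.21% in macrophage-like cells. Macrophage-like cells were led by Birc5 (11.8%), Ube2c (10.5%) and Mki67 (8.23%), which held 5.62%, 3.57% and 5.84% in fibroblast-like cells. T cell-like cells were led by Top2a with 12.7% (10.7 to 14.9%), against 1.83% (1.52 to 2.19%) in fibroblast-like and 6.30% (5.49 to 7.18%) in macrophage-like cells. Aurkb held 0.339% in fibroblast-like, 2.33% in macrophage-like and 2.90% in T cell-like cells, and it was detected at equal depth in 3 of 128, 15 of 75 and 8 of 29 of the positive cells. Top2a was detected in 13, 29 and 16 of these cells, and Ccnb2 in 91, 37 and 7.

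Among fibroblast-like cells, the G2/M-positive share was higher with activation markers than without, and lower with resting markers than without. A cell counted as carrying a subset's markers with at least 2 of them at equal depth, and as without them with none; these groups overlap between subsets. Of 883 cells with activation markers (Postn, Cthrc1, Cilp, Comp, Fmod, Ltbp2), 41 were G2/M-positive (4.64%, 3.35 to 6.25%), against 17 of 2324 without (0.731%, 0.427 to 1.17%). Their S-positive shares were 3.51% (2.40 to 4.95%) and 2.37% (1.79 to 3.07%), with intervals that overlap. Of 1385 cells with resting markers (Hsd11b1, Penk, Inmt, Tcf21), 14 were G2/M-positive (1.01%, 0.554 to 1.69%), against 64 of 1046 without (6.12%, 4.74 to 7.75%). Cells with complement-rich markers (Cxcl14, C3, Smoc2, Apoe) had 51 of 3345 (1.52%, 1.14 to 2.00%) against 17 of 225 without (7.56%, 4.46 to 11.8%). Here the S-positive shares were also apart at this threshold, at 2.24% (1.77 to 2.80%) and 6.22% (3.44 to 10.2%). With at least 5 UMIs that S gap was not kept, at 5 of 3345 against 0 of 225 cells. Without Slbp and Pcna the S shares were 0.419% (0.229 to 0.701%) and 1.78% (0.486 to 4.49%), with overlapping intervals. The activation and resting differences kept their direction in 10 of 10 alternatives, from 2.83 to 7.91 and from -8.21 to -3.65 percentage points. Cells with activation markers had more UMIs (median 9227 against 6669), and cells with resting markers (6443 against 8392.5) or complement-rich markers (7237 against 9685) fewer. Of the 883 cells with activation markers, 609 were at the minimum of 2 markers.

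Single markers differed in this. Cells with a UMI of Postn, which encodes the matrix protein periostin, held 109 of the 128 G2/M-positive cells, or 4.89% of 2231 cells against 0.727% of 2614 without. Cthrc1, a secreted protein of activated fibroblasts, gave 9.05% of 210 cells against 2.35%, and Tnc, the matrix protein tenascin C, 10.7% of 149 cells against 2.39%. Of the Tnc-type list, Col26a1 gave 6.25% of 192 cells against 2.49%, whereas Il6 went the other way, with 2.07% of 968 cells against 2.79%. The gaps of the other activation markers were smaller, with Cilp at 3.32% against 2.52% and Ltbp2 at 3.85% against 2.57%, and Comp (2.34% against 2.65%) and Fmod (1.56% against 2.67%) went the other way, from 4 and 2 positive cells. Tcf21, a transcription factor of resident fibroblasts, gave 1.67% against 4.69%, and C3, a complement component, 1.12% against 3.94%. Of 119 cells with Osr1-type markers 0 were G2/M-positive, for which a limit of 3 cells allows a share of up to 2.52% and the Clopper-Pearson interval reaches 3.05%, and 5 of 77 with Tnc-type markers were (6.49%, 2.14 to 14.5%). Progenitor-type markers (Pi16, Cd248, Dpp4, Ly6c1, Sema3c) gave 1.89% against 2.80%, with overlapping intervals, and Wif1-type markers 1 of 111 cells.

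**Figure D5:**
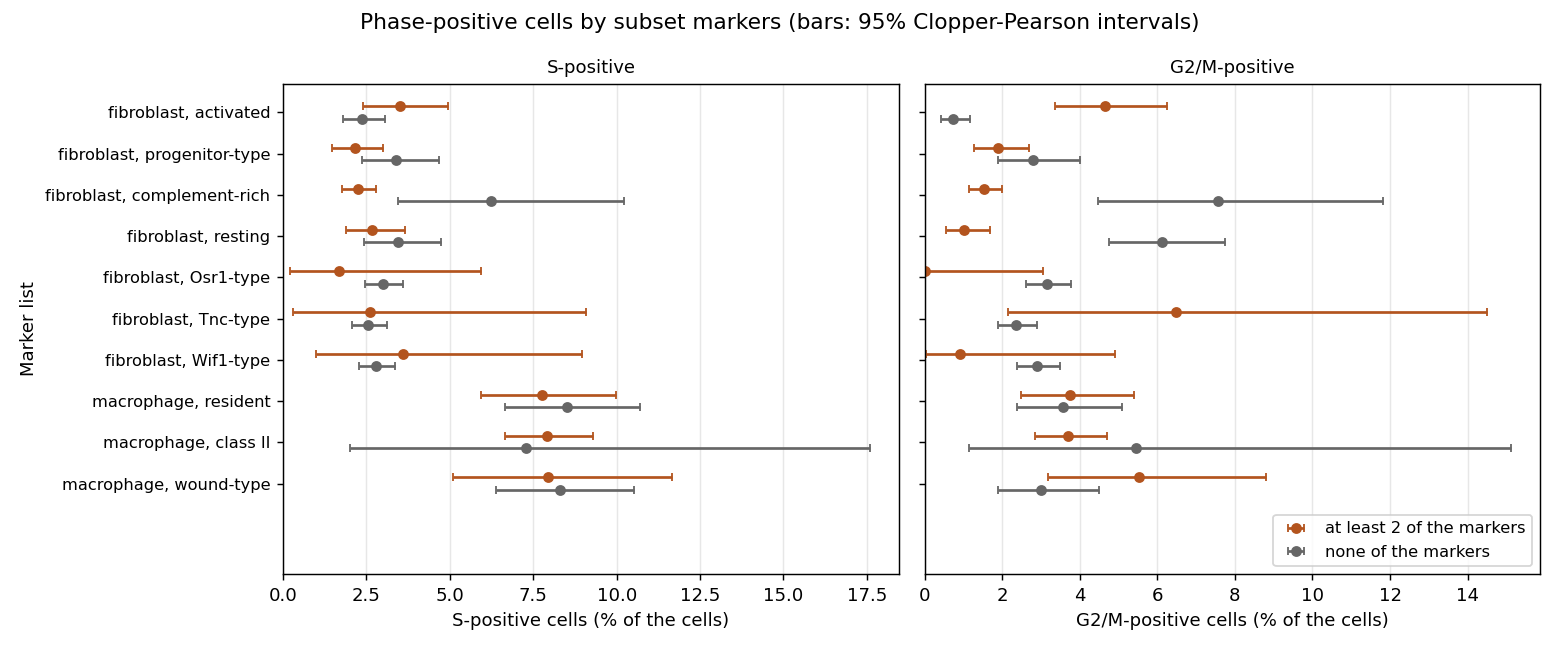
S-positive (left) and G2/M-positive shares (right) of fibroblast-like and macrophage-like cells with at least 2 markers of a subset (orange) and with none (grey), at 2500 UMIs per cell, with 95% Clopper-Pearson intervals. On the right, activated, complement-rich and resting fibroblast-like cells have intervals apart from their marker-free cells, whereas on the left only those of complement-rich cells do.

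Between macrophage subsets the intervals of both phases overlapped in each of the 3 marker lists. G2/M-positive cells were 3.75% of 720 cells with resident markers (Folr2, Lyve1, Timd4, Cd163, F13a1) and 3.56% of 787 without, and S-positive cells 7.78% and 8.51%. With class II markers they were 3.68% of 1683 cells (2.84 to 4.70%), against 3 of 55 without (5.45%, 1.14 to 15.1%). Few cells lacked all of these markers, and cells with a UMI of a single class II gene, which presents antigen, had lower G2/M-positive shares, at 3.22% of 1551 against 6.68% of 374 for H2-Aa, 3.33% against 6.11% for H2-Ab1, 3.38% against 5.78% for H2-Eb1 and 3.76% against 6.09% for Cd74. These differences were not tested. Wound-type markers (Arg1, Spp1, Fabp5, Gpnmb, Trem2) gave 5.52% of 290 (3.19 to 8.80%) against 2.99% of 736 (1.88 to 4.49%), with overlapping intervals. Of the wound-type markers, Spp1, which encodes osteopontin, gave 25 of 265 cells (9.43%) against 3.01% of 1660 without, while Trem2 gave 3.92% against 3.87%. Fabp5 (3.29% of 213 cells against 3.97%) and Arg1 (0 of 49 cells against 4.00%) went the other way. T cell-like cells with Cd8a or Cd8b1 were G2/M-positive in 11 of 164 (6.71%, 3.40 to 11.7%) and the others in 18 of 145 (12.4%, 7.53 to 18.9%). In T cell-like cells the intervals overlapped for G2/M and also for S (33.5% against 24.1%).

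Other cycle genes, from lists that share no gene with the 40, were counted in the same 2 comparisons. Of 25 other S genes 13 were called higher in macrophage-like than in fibroblast-like cells, and of 25 other G2/M genes 9, with 0 called lower in either. In blood endothelial-like cells these counts were 15 of 24 tested and 22 of 25. The most abundant other S genes were Dut, which clears dUTP, at 0.739 of the fibroblast-like level in macrophage-like cells, Atad2 at 1.42 and Gmnn, the inhibitor of Cdt1, at 7.38 (6.11 to 8.95). Of the other G2/M genes, Smc4, a condensin subunit, was at 1.04, Cenpa, the centromeric histone, at 2.01 and Racgap1 at 1.52. Among 15 genes of entry and regulation 5 were higher in macrophage-like cells and 1 lower, and in blood endothelial-like cells 5 and 2 of 14. Over all genes tested, 16.6% were higher and 29.9% lower in macrophage-like cells and 13% and 11.4% in blood endothelial-like cells, so that 2 of 14 lower was near the share over all genes. The most abundant of them were Ccnd3 (0.50 of the fibroblast-like level in macrophage-like, 1.54 in blood endothelial-like cells), Cdk4 (0.71 and 1.24) and Ccnd1 (1.35 and 4.09). Among 13 broad growth genes 5 were higher in each comparison, led in abundance by Ptma (1.11 and 1.89), H2az1 (2.71 and 2.13) and Tubb5 (1.23 and 1.85).

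Among inhibitors and antiproliferative genes, 3 of 11 were called higher in macrophage-like cells and 3 in fibroblast-like cells, and 1 of 11 was called higher in blood endothelial-like cells. The 3 of 11 in fibroblast-like cells and the 1 of 11 were near the shares over all genes tested (29.9% and 13%), and nothing is read from these counts. Cdkn1a, which encodes the kinase inhibitor p21, was at 902 CPM in macrophage-like, 642 in monocyte-like, 445 in blood endothelial-like, 317 in fibroblast-like and 139 CPM in T cell-like cells. Btg1 was at 2229 CPM in monocyte-like, 2085 in T cell-like, 813 in macrophage-like and 204 CPM in fibroblast-like cells, and Btg2 at 936, 825, 981 and 1008 CPM. Cdkn1c (p57) was highest in endocardial-like cells at 403 CPM, with 170 in blood endothelial-like, 109 in fibroblast-like and 27.8 CPM in macrophage-like cells. Cdkn2c was 0.398 and Cdkn2b 0.212 of the fibroblast-like level in macrophage-like cells, and Cdkn2a was 4.47. Cdkn2a reached 53.6 CPM in lymphatic endothelial-like cells, a level from few UMIs, as these 51 cells held 261073 UMIs in all. Their G2/M list summed to 91.9 CPM (58.9 to 137) from 24 UMIs, and a link between these levels was not tested. Cdkn1b, Cdkn2d, Trp53 and Ccng1 had ratios of 1.07, 1.05, 0.897 and 0.993 in macrophage-like cells and 0.966, 1.97, 1.70 and 0.699 in blood endothelial-like cells, none of them called.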

How the data were processed

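One gene expression library was used. Per the labels' protocols, viable calcein-positive, DAPI-negative heart cells of hashtagged mice were sorted into a pool and run on a 10x 3′ kit, version 3.1, aiming at 10000 cells. The deposited matrix holds UMI counts without normalization. The submitters' processing notes name STARsolo, Scanpy and mm10; the rule that called cells is not given in the sources used here. Doublets were called with Scrublet in scanpy 1.11.5 without the cycle genes and removed. A cell's lineage needed at least 3 markers (5 for fibroblasts; 4 for macrophages, pericytes and B cells) at 2500 UMIs, 144 markers in 20 lists. Python 3.11.15, numpy 2.4.6, scipy 1.17.1 and pandas 2.3.3 were used. Clusters (30 components, 15 neighbours, Leiden resolution 1, 32 clusters) served as an alternative. Levels have 95% exact Poisson intervals, shares Clopper-Pearson and ratios exact binomial ones, for counting error only. With 1 library no significance test was run. The 40 genes, lists and markers were chosen with earlier results of these data known. Genes with values were named by rule: the 5 with most UMIs per list, the 3 highest and 2 lowest ratios, leading genes per lineage, the 3 most abundant of each other list, and inhibitors with at least 20 UMIs; further ones, such as Mcm3, Cenpf or single subset markers, were picked after their values were seen. Thinning and calling were tested on simulated data. The simulated UMIs of a gene were not clumped in a few cells, so the effect of such clumping on the calls was not tested.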

Additional observations from a re-analysis of the deposited data

How the results depend on the processing

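No paired analysis was possible because all cells come from 1 pooled library. Shares of positive cells moved with depth and threshold, given here as S-positive, G2/M-positive and S-only share of phase-positive cells. At 1500 UMIs they were 0.537%, 1.92% and 17.7% in fibroblast-like cells, with 3.64% S-positive and 43.8% S-only in macrophage-like cells. At 5000 UMIs, which left out 788 and 711 cells, they were 10.8%, 3.92% and 70.4%, and 24.3%, 8.24% and 71.6%. Without thinning they were 25.8%, 4.87% and 82.4%, and 28.5%, 9.92% and 70.0%. With at least 2 UMIs they were 9.99%, 3.22% and 73.9%, and 17.4%, 6.597% and 69.1%. With at least 5 they were 0.186%, 1.82% and 7.37%, and 3.27%, 2.86% and 44.4%. Without the 2 leading genes they were 0.722%, 2.11% and 19.0% in fibroblast-like cells, with 4.78% S-positive and 51.9% S-only in macrophage-like cells. Another seed gave 2.30% S-positive fibroblast-like cells. The ratio of G2/M to S levels was 1.18 and 1.09 without the leading genes, 0.726 and 0.804 with cells weighed equally, and 0.871 in fibroblast-like cells gated on all UMIs. The other 54 values of the main results, including gating by cluster and keeping doublets, moved by less than their intervals or, for counts of genes, less than 1.5 times. Main results here are the shares and ratios of these 2 lineages and the counts of genes called. Of the remaining values (other lineages, subsets, summed levels and single genes), 138 moved past their intervals and 685 stayed the same. Single genes gained a call in 11 cases and lost it in 8. Genes called ranged from 8 to 11 (S) and 11 to 15 (G2/M) in macrophage-like and from 13 to 15 and 19 to 22 in blood endothelial-like cells. The share called over all genes was counted in the main setting only, so these ranges have no background beside them. The cause of the shifts in shares, ratios and counts was not tested beyond the depth and thresholds changed. Gates near their minimum, small lineages and a sort that shapes the cells present limit the shares.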

Other observations

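Cells outside the named lineages also held S and G2/M transcripts. Of 507 cells that passed markers of several lineages, 47 were S-positive (9.27%, 6.89 to 12.1%) and 26 were G2/M-positive (5.13%, 3.38 to 7.42%). Of 205 cells of no lineage, 15 (7.32%) and 11 (5.37%) were positive, and 6 of the 11 were positive for both lists. The 358 called doublets, with a median of 12779 UMIs, had 24 S-positive (6.70%) and 16 G2/M-positive cells (4.47%), so that few G2/M-positive cells were lost with them. Dendritic-like cells had 6 S-positive and 3 G2/M-positive of 56, with 45 of the 56 at the minimum of 3 markers. Smooth muscle-like cells had 2 S-positive and 0 G2/M-positive of 24, for which a limit of 3 cells allows a share of up to 12.5% and the Clopper-Pearson interval reaches 14.2%.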
